A study of Mus musculus with 4 samples.

Results

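This account follows 51 genes of DNA replication and S phase, named by symbol and grouped by the step of replication in which they act, in fibroblasts with and without a mutation in the corepressor SMRT. A gene was read from the Affymetrix probe sets annotated to its symbol alone, and of several it was represented by the probe set with the highest mean signal. By this rule 50 of the 51 genes had a probe set, out of 18193 genes on the array, and all 50 passed the filter on low signal. Chaf1a was not analysed here.

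Total RNA was measured on 4 arrays, 2 from wild-type 3T3-MEFs and 2 from SMRTmRID 3T3-MEFs. 3T3-MEFs are mouse embryonic fibroblasts carried by serial passage into a permanent line. Both groups were untreated, were harvested undifferentiated when they reached confluence, and differ by label only in genotype: SMRTmRID cells carry SMRT altered in the domains through which nuclear receptors bind it. The labels call the 2 arrays of a genotype technical replicates and name neither the number of lines nor the embryos behind them. All p-values therefore measure the spread between such arrays, and a difference between genotypes cannot be told apart from one between the lines. Collagen genes, Fn1, Vim and S100a4 were bright in both. S100a4 had 9327 and 9602 on the wild-type arrays against 7652 and 7567 on the SMRTmRID arrays. Pdgfrb had 1719 and 1879 against 6310 and 6115. The other fibroblast markers, Thy1, Dcn and Pdgfra, were far lower in wild-type than in SMRTmRID. Thy1 had 20.6 and 6.57 on the wild-type arrays against 3172 and 3184 on the SMRTmRID arrays. Dcn had 60.9 and 63.7 against 8878 and 8777, and Pdgfra 247 and 262 against 4828 and 5090. The genotypes thus differed widely in some markers of the labelled cell type, and the part of this in the results was not tested.

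DNA replication starts at origins bound by the origin recognition complex (ORC), on which Cdc6 and Cdt1 load the ring-shaped MCM helicase during G1. At the start of S phase, kinases, Cdc45 and the GINS complex turn the ring into an active helicase, primase and the DNA polymerases follow it, and the clamp PCNA, loaded by the RFC complex, keeps the polymerases on the template. Many of these genes are transcribed in late G1 by E2F transcription factors, which the retinoblastoma protein family holds inactive in resting cells.

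Short stretches before the start sites of 7 members are shown first, because they carry the sequence motif through which E2F proteins bind. Promoters were taken from RefSeq on GRCm38.p6 as 300 bases, from 250 before a gene's start to 50 after it, and 42 of the 51 members were found in that table. The motif was searched as TTTCCCGC, TTTCGCGC, TTTGGCGC or TTTGCCGC on both strands, so that matches may overlap. Capitals mark matches, and each stretch of 100 bases is read 5′ to 3′ on the gene's own strand. Shown are the members that passed the test between genotypes and have a match before the start site, the first 5 lower and the last 2 higher in SMRTmRID.
Mcm5: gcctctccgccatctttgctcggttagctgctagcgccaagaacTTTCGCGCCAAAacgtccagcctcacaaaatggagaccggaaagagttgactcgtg
Mcm6: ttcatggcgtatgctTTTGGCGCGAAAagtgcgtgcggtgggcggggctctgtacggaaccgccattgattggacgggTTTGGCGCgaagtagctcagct
Mcm7: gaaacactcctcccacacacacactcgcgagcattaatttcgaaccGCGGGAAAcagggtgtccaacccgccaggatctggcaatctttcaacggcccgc
Cdc6: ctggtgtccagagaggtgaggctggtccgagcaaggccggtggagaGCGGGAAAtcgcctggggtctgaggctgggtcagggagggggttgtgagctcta
Uhrf1: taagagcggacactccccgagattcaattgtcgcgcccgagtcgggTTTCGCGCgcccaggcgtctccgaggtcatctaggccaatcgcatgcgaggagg
Pola1: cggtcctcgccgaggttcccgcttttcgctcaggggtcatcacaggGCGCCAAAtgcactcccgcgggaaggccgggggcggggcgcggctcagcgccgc
Orc3: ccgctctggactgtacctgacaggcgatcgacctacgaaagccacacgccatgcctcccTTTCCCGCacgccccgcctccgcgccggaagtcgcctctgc
The stretches lie at chr8:75109312-75109411, plus strand (Mcm5), chr1:128359731-128359830, minus strand (Mcm6), chr5:138171995-138172094, minus strand (Mcm7), chr11:98907967-98908066, plus strand (Cdc6), chr17:56304082-56304181, plus strand (Uhrf1), chrX:93632240-93632339, minus strand (Pola1) and chr4:34614943-34615042, minus strand (Orc3). In the Mcm5 stretch the capitals are 2 overlapping matches on opposite strands, and the Mcm6 stretch holds 3 matches.

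The E2F motif was found in 15 of the 42 member promoters, or 35.7%, against 2.6% of all 27025 genes in the table and 4.84% of the 8972 genes of the table that were tested. In 10 of the 15 a match lay before the start site and in 5 (Cdt1, Lig1, Mcm3, Pold1 and Pole2) only after it. CCAAT, bound by NF-Y, was in 59.5% of member promoters and in 43.4% of tested genes. GGGCGG, bound by Sp1, was in 78.6% and 70.6%. TTTGAA, a core of the CHR element of mitotic promoters, was in 11.9% and 14.0%.

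Most replication genes were lower in SMRTmRID cells. Of the 50 tested, 33 fell, 6 rose and 11 were not called (limma, Benjamini-Hochberg adjusted p under 0.05 over all 11057 tested genes). Of the higher members Tyms was above the filter only through SMRTmRID, the group where it was high, and without it 5 of 49 rose. In the background of all tested genes 35% fell and 30.3% rose, 65.2% in all, so that a call by itself was common in this comparison, and the members stood at 66.0% lower and 12.0% higher. The median difference of the 50 members was -0.48, against -0.05 over all tested genes. A difference is the mean log2(signal + 16) in SMRTmRID less that in wild-type, where the added 16 damps changes of dim probe sets, and signals are the deposited MAS5 intensities on a linear scale.

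The differences ran from -1.61 for Mcm5 to 0.93 for Rfc1. The members that fell by at least 1 on the log2 scale were 7, Mcm5, Rrm2, Dut, Pold1, Lig1, Rpa1 and Chaf1b, and none rose by as much, where 6.79% of all tested genes fell and 9.69% rose by that amount. The SMRTmRID arrays lay below both wild-type arrays for 38 members and above both for 7, against 43.4% and 38.1% of all tested genes, 81.5% in all.

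**Figure D1:**
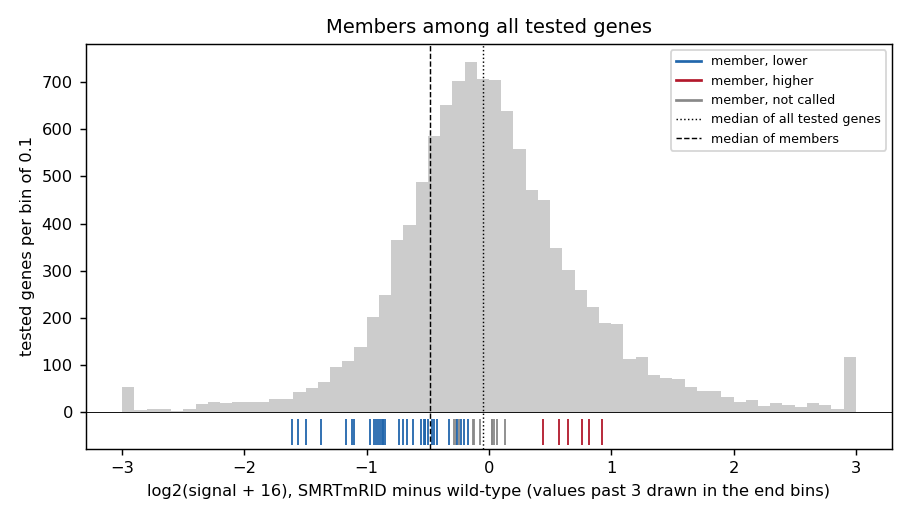
Histogram of the log2 difference (SMRTmRID minus wild-type) of the 11057 tested genes in bins of 0.1, with a tick below the axis for each of the 50 members, coloured by call. The members' median of -0.48 (dashed line) lies to the left of the median of all tested genes at -0.05 (dotted line), and no member lies in the tails beyond -1.61 and 0.93.

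**Figure D2:**
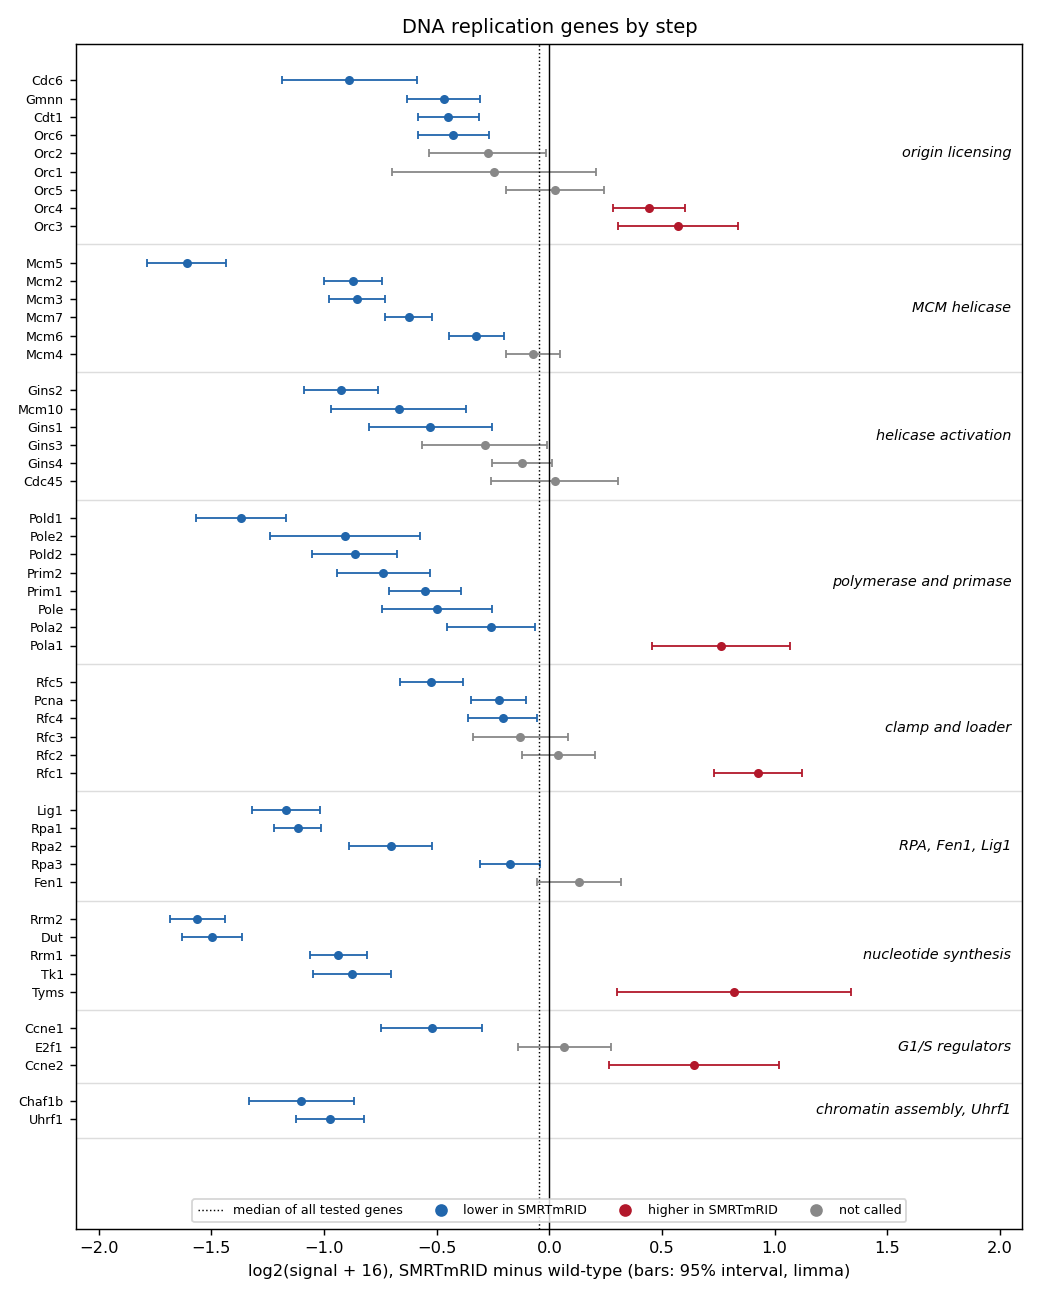
Log2 difference of each member with its 95% interval from limma (2 arrays per genotype), sorted within its step of replication. Blue members (33) passed the test as lower, red members (6) as higher, and grey members (11) did not pass; the dotted line is the median of all tested genes.

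Origin licensing genes went both ways. Of 9 members 4 fell, 2 rose and 3 were not called, the median being -0.27. The loading factors and their inhibitor were lower. Cdc6, the ATPase that joins ORC to load MCM rings, had signals of 203 and 199.8 on the wild-type arrays and 94.5 and 109 on the SMRTmRID arrays, a log2 difference of -0.89 ± 0.13 (SE, limma adjusted p = 0.000261). Cdt1, which brings the MCM ring to the origin, went from 1552 and 1504 to 1169.97 and 1064, a difference of -0.45. Gmnn, which encodes the Cdt1 inhibitor geminin, went from 714 and 645 to 493 and 479, a difference of -0.47. The SMRTmRID arrays lay below both wild-type arrays for each of these genes, as for 43.4% of all tested genes. The loading factors and the inhibitor were each called lower, as were 35% of all tested genes.

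The ORC subunits did not share a direction. Orc6, the smallest subunit, fell by 0.43 on the log2 scale. Orc3, a core subunit, rose from 212 and 173 to 281 and 304 (log2 difference 0.57 ± 0.12 SE, limma adjusted p = 0.00196). Orc4, another core subunit with an ATPase fold, rose from 387 and 391 to 524 and 545 (0.44 ± 0.07 SE, limma adjusted p = 0.000397). Orc4 was also higher on its other probe sets above the filter, by 1.24 and 1.02, and Orc3 on its other one by 0.66. With its probe sets averaged Orc3 had 0.90, but that average took in a probe set below the filter. Orc1 and Orc2 had differences of -0.25 (95% interval -0.70 to 0.21) and -0.27 (-0.53 to -0.01) with non-overlapping arrays and did not pass (adjusted p = 0.311 and 0.0606 by limma). Orc2 passed as lower without the variance trend (adjusted p = 0.0408) and with quantile normalization (-0.39, 0.0121), and its second probe set gave 0.15. Orc5 had 0.03, with an interval from -0.19 to 0.24 and overlapping arrays.

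The MCM ring, the core of the replicative helicase, consists of Mcm2 to Mcm7 in equal numbers, but its 6 transcripts differed by unequal amounts. Of the 6, 5 fell and 1 was not called, the median being -0.74. Mcm5 had signals of 2779 and 2741 on the wild-type arrays against 981 and 814 on the SMRTmRID arrays, a 3.08-fold lower mean (log2 difference -1.61 ± 0.08 SE, limma adjusted p = 1.53e-07). Mcm2 went from 1155 and 1176 to 646 and 614 (-0.87) and Mcm3 from 1155 and 1136 to 630.2 and 624 (-0.85). Mcm7 and Mcm6 had differences of -0.62 and -0.32. Mcm4 had 1036 and 1021 on the wild-type arrays against 967 and 987 on the SMRTmRID arrays, a difference of -0.07 that did not pass (adjusted p = 0.258 by limma). Its interval, from -0.19 to 0.05, lay apart from those of the other 5 subunits, but only narrowly from that of Mcm6, from -0.45 to -0.20. The second Mcm4 probe set gave -0.09, and that of Mcm6 gave -0.68. Over the alternatives the difference of Mcm4 ranged from -0.14 to -0.05 and that of Mcm6 from -0.68 to -0.17. The Mcm6 value of -0.17 came from centring each array on the genes of the same chromosome. It lay inside the Mcm4 interval given above, so the gap between Mcm4 and Mcm6 depended on the processing.

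Helicase activation genes fell or did not pass. Of 6 members 3 fell, 3 were not called and none rose, the median being -0.41. Gins2, a subunit of the 4-part GINS complex that completes the active helicase, went from 657 and 649.7 to 325 and 349, a difference of -0.92 ± 0.07 (SE, limma adjusted p = 3.27e-06), and its second probe set gave the same value to 2 decimals. Mcm10, which helps start unwinding, went from 187 and 191 to 105 and 122 (-0.67), and Gins1 from 194 and 202 to 127 and 138 (-0.53). Gins3 and Gins4 had differences of -0.29 and -0.12 with non-overlapping arrays and did not pass (adjusted p = 0.0652 and 0.0961 by limma). Gins3 passed as lower without the variance trend (adjusted p = 0.0203) and with quantile normalization (-0.41, 0.0138). Cdc45, the helicase cofactor, had 159.6 and 182.0 against 182.2 and 165 (0.02, interval -0.26 to 0.30), and its arrays overlapped. Mcm10 lost its call when its probe sets were averaged (adjusted p = 0.0538 by limma, range over its alternatives 0.000303 to 0.0538). That average took in its other probe sets, all below the filter.

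Polymerase and primase genes were nearly all lower. Of 8 members 7 fell and 1 rose, with a median of -0.64. Pold1, the catalytic subunit of the lagging-strand polymerase delta, went from 456 and 471 to 168 and 170.2, a 2.73-fold lower mean (log2 difference -1.37 ± 0.09 SE, limma adjusted p = 9.15e-07). Its partner subunit Pold2 went from 618 and 564 to 301 and 333 (-0.86). Pole2, a subunit of the leading-strand polymerase epsilon, went from 328 and 267 to 131 and 173 (-0.91), and the catalytic subunit Pole had a difference of -0.50. The primase subunits Prim1 and Prim2, which lay the RNA primers, had differences of -0.55 and -0.74, or -0.33 for Prim1 on its second probe set and -0.44 for Prim2 with its probe sets averaged. Pola2, the accessory subunit of polymerase alpha, had -0.26 (adjusted p = 0.0247 by limma). It lost its call without wild-type replicate 1 (-0.27), wild-type replicate 2 (-0.25) or SMRTmRID replicate 2 (-0.22). With its probe sets averaged the difference was -0.10 and not called (adjusted p = 0.630 by limma, range over its alternatives 0.00829 to 0.630). The other Pola2 probe sets in that average were all below the filter.

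Pola1, the catalytic subunit of polymerase alpha that extends the primers, went the other way. Its signals were 98.3 and 99.02 on the wild-type arrays and 169 and 189 on the SMRTmRID arrays (log2 difference 0.76 ± 0.14 SE, limma adjusted p = 0.000826). Pola1 is the member on the X chromosome, whose 339 tested genes had a median difference of 0.35. With each array centred on the genes of the same chromosome it was 0.20 and no longer called (adjusted p = 0.233, range over its alternatives 0.000127 to 0.233).

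The clamp and its loader went both ways. Of 6 members 3 fell, 1 rose and 2 were not called, the median being -0.17. Pcna, the sliding clamp, went from 3719 and 3815 to 3366 and 3078 (-0.23 ± 0.05 SE, limma adjusted p = 0.00435), and lost its call without the variance trend (adjusted p = 0.0677, range 0.000948 to 0.0677). With quantile normalization its difference was -0.12. Rfc5, a small subunit of the clamp loader, went from 732 and 721 to 499.6 and 499.9 (-0.52). Rfc1, the large subunit of the same loader, rose from 257 and 293 to 526 and 547 (0.93 ± 0.09 SE, limma adjusted p = 1.09e-05), and its other probe sets gave 1.13 and 1.28. The large subunit and Rfc5 thus lay on opposite sides with no overlap of arrays, and arrays did not overlap for 81.5% of all tested genes.

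Of the other loader subunits, Rfc4 went from 561 and 537 to 478 and 468 (-0.21, adjusted p = 0.0226 by limma). Rfc4 lost its call without wild-type replicate 1 (adjusted p = 0.102), SMRTmRID replicate 1 (0.0516) or SMRTmRID replicate 2 (0.0844), also without the variance trend (0.0581) and with its probe sets averaged (-0.13, 0.141), and its second probe set gave -0.05 (0.688, range 0.00628 to 0.688). Rfc2 and Rfc3 had differences of 0.04 (interval -0.12 to 0.20) and -0.13 (-0.34 to 0.08) and did not pass. Rfc3 passed as lower without SMRTmRID replicate 1 (-0.26, adjusted p = 0.0306 by limma) and with chromosome centring (-0.31, adjusted p = 0.0116).

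RPA, the trimer that coats single-stranded DNA, and the ligase that seals Okazaki fragments were lower. Of the 5 members of this step 4 fell and 1 was not called, the median being -0.70. Lig1, the replicative ligase, went from 777 and 814 to 346 and 344, a difference of -1.17 ± 0.07 (SE, limma adjusted p = 4.53e-07). Rpa1, the large RPA subunit, went from 3323 and 3384 to 1514 and 1560.4, a 2.18-fold lower mean (-1.12 ± 0.05 SE, limma adjusted p = 5.77e-08), and Rpa2 from 474 and 441 to 271 and 278 (-0.70). The small subunit Rpa3 had a difference of -0.18 (adjusted p = 0.0260 by limma) and lost its call without wild-type replicate 1 (0.105), SMRTmRID replicate 1 (0.0532) or SMRTmRID replicate 2 (0.102). It also lost its call without the variance trend (0.0835), and its adjusted p ranged over the alternatives from 0.000218 to 0.105. The RPA subunits thus ranged from -1.12 to -0.18, with intervals that did not overlap between Rpa1, Rpa2 and Rpa3.

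Fen1, the flap nuclease that trims Okazaki fragments, depended on the probe set. The probe set with the higher mean had 434 and 496 on the wild-type arrays against 495 and 526 on the SMRTmRID arrays (0.13, interval -0.05 to 0.32), and its arrays overlapped. The other had 555 and 586 on the wild-type arrays against 301 and 318 on the SMRTmRID arrays, a difference of -0.85 (adjusted p = 1.58e-05 by limma, when it stood for the gene).

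Nucleotide synthesis held the greatest declines after Mcm5. Of 5 members 4 fell and 1, Tyms, was called higher, with a median of -0.94. Rrm2, the small subunit of ribonucleotide reductase, which makes deoxynucleotides, went from 2113 and 2138 to 729.6 and 689, a 3.00-fold lower mean (-1.56 ± 0.05 SE, limma adjusted p = 1.89e-08). Rrm1, the large subunit, went from 2116 and 2096 to 1045 and 1142 (-0.94, or -0.41 with its probe sets averaged). Dut, which removes dUTP and supplies dUMP for thymidylate, went from 1772 and 1935 to 642 and 647 (-1.50 ± 0.06 SE, limma adjusted p = 4.13e-08). With its probe sets averaged Dut had -0.96. Its dimmer probe set gave -0.43 and did not pass (adjusted p = 0.0501, the highest of its alternatives). Tk1, the thymidine salvage kinase, had a difference of -0.88.

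Tyms, thymidylate synthase, was measured only by dim probe sets here, since a brighter one carries a further symbol and was left out by the rule. Its signals were 29.8 and 34.5 on the wild-type arrays against 64.2 and 73.9 on the SMRTmRID arrays, a difference of 0.82 ± 0.23 (SE, limma adjusted p = 0.0108). The wild-type mean of 32.1 lay below the filter of 35.1 and the SMRTmRID mean of 69.1 above it, so that the gene was tested only through the group where it was high and its call is no support for a rise. It lost its call without SMRTmRID replicate 2 (0.0765) or on its second probe set (0.0518), over a range from 0.00359 to 0.0765, and with a pseudocount of 64 the difference was 0.47.

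Of the 3 G1/S regulators 1 fell, 1 rose and 1 was not called. Ccne1, the E-type cyclin that activates Cdk2 at S-phase entry, had 338 and 337.8 on the wild-type arrays against 248 and 214 on the SMRTmRID arrays (-0.52 ± 0.10 SE, limma adjusted p = 0.00119), but 0.033 with each array centred on the genes of the same chromosome, where it was not called (adjusted p = 0.790). Its close relative Ccne2 had 77.0 and 67.3 on the wild-type arrays against 114 and 129 on the SMRTmRID arrays (0.64 ± 0.17 SE, limma adjusted p = 0.00744). Ccne2 lost its call without SMRTmRID replicate 2 (adjusted p = 0.0518, range 0.00308 to 0.0518). E2f1, the activator of many of these genes and itself an E2F target, had 304 and 275 on the wild-type arrays against 307 and 299.9 on the SMRTmRID arrays, a difference of 0.07 with an interval from -0.14 to 0.27 and overlapping arrays.

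Both measured genes of chromatin assembly and maintenance fell. Chaf1b, a subunit of the chromatin assembly factor that places histones behind the fork, went from 324 and 312 to 143 and 136 (-1.10 ± 0.10 SE, limma adjusted p = 1.11e-05). Uhrf1, which brings the maintenance DNA methyltransferase to newly copied DNA, went from 1074 and 1199.8 to 565 and 576 (-0.97 ± 0.07 SE, limma adjusted p = 1.45e-06).

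**Figure D3:**
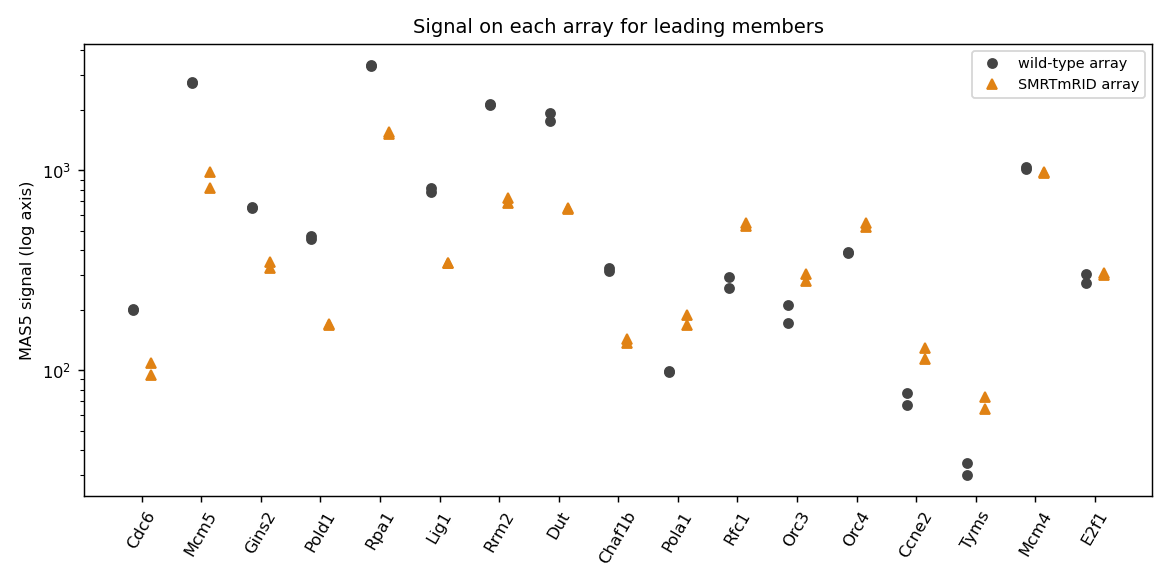
MAS5 signal on each array, on a log axis, for 17 members, with circles for the 2 wild-type arrays and triangles for the 2 SMRTmRID arrays. From Cdc6 to Chaf1b the triangles lie below the circles, from Pola1 to Tyms above them, and for Mcm4 and E2f1 they lie close together.

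Probe sets of the same gene served as a further look. Of the members, 31 had several probe sets above the filter, and in 27 of these all pointed the same way. The 4 exceptions, Fen1, Orc2, Rfc2 and Rfc3, had not passed the test. All 22 called members with several such probe sets kept 1 direction, among them Mcm3 with 4 probe sets between -0.98 and -0.71 and Mcm7 with 4 between -0.77 and -0.62. Probe sets of a gene share the RNA and the arrays and are not replicates.

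**Figure D4:**
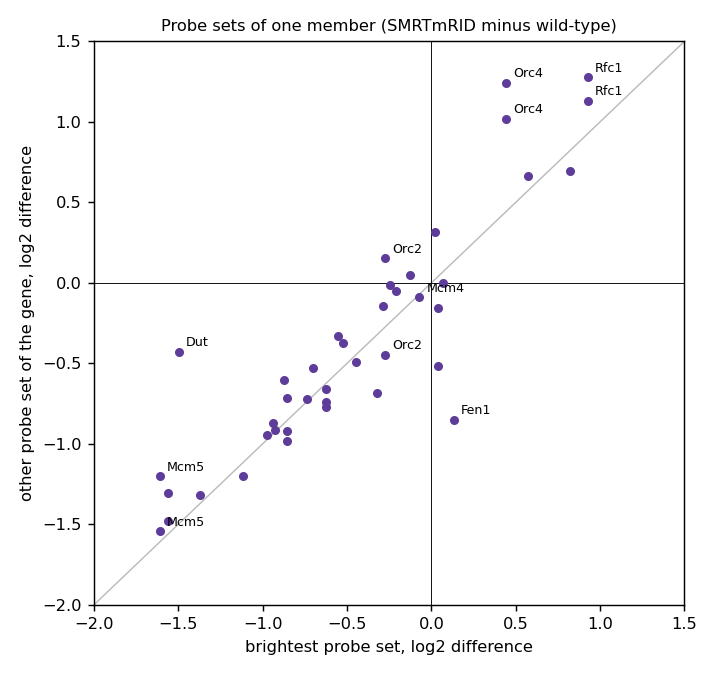
Log2 difference (SMRTmRID minus wild-type) of the brightest probe set of a member (x axis) against each of its other probe sets above the filter (y axis), 41 points of 31 genes, with the line of equal values. Most points lie near the line; Fen1 at 0.13 and -0.85 and Dut at -1.50 and -0.43 lie far from it.

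The members were next read by the E2F motif in their promoters. Of the 15 members with a match 10 fell, 2 rose and 3 were not called, the median being -0.62. Of the 26 tested members without one in this window 18 fell, 3 rose and 5 were not called, the median being -0.47. Rpa1 and Rrm2, among the members that fell most, had no match, and no match says only that these letters are not in these 300 bases. Outside the members, 419 tested genes had a match, of which 42.0% fell and 24.8% rose, with a median of -0.12, beside 35% and 30.3% of all tested genes. The difference between these shares was not tested.

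Chromosome 7 had a lower median than the other chromosomes among the tested genes, at -0.54 over 817 genes, and chromosome 8 the next lowest, at -0.29 over 617. Of the members, 4 lie on chromosome 7 (Pold1, Lig1, Rrm1 and Ccne1) and all 4 fell, where 61.2% of all tested genes of that chromosome were lower. Of 6 on chromosome 8 (Orc6, Cdt1, Mcm5, Gins2, Gins3 and Gins4) 4 fell and 2 did not pass, where 53.2% of its tested genes were lower, so both chromosomes had a higher background than the 35% of all tested genes. Of the 40 members tested on other chromosomes 25 fell and 6 rose, with a median of -0.40. Centring each array on the genes of the same chromosome left 33 members lower and 5 higher, with a median of -0.40. Under it Pold1 had a difference of -0.81, Lig1 of -0.61 and Rrm1 of -0.38, and Ccne1 lost its call (range of its adjusted p over the alternatives 6.43e-05 to 0.790). The differences of Orc6 and Cdt1 were -0.20 and -0.22, that of Mcm6 on chromosome 1 was -0.17 and that of Rpa3 on chromosome 6 was -0.43.

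Other genes of the replication pathway, 85 in 6 lists without any member, went both ways. Of the 79 tested 34 fell, 29 rose and 16 did not pass, 43.0% and 36.7%, with a median of -0.06, against 35% and 30.3% of all tested genes. Among 11 kinases and firing factors 6 fell and 4 rose. Ccna2, the S-phase cyclin, had a difference of -0.70 and the firing factor gene Ticrr of -1.53, with SMRTmRID signals of 8.83 and 50.4. Ticrr was thus above the filter only through wild-type. Without SMRTmRID replicate 1 its difference was -0.82, and its call was lost without the variance trend, with probe sets averaged or with chromosome centring. Cdc7 and Dbf4, the kinase and its activator that fire origins, rose by 0.63 and 0.44, and Dbf4 by 0.25 with chromosome centring. The second probe sets of Ccna2 and Cdc7 gave -0.09 and 0.05 and did not pass, and that of Ticrr gave 0.08.

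Among 15 genes of the E2F and RB system and its inhibitors 5 fell and 8 rose, the median being 0.33. Cdkn1a, the gene of the Cdk inhibitor p21, went from 2374 and 2325 to 171 and 139 (-3.79 ± 0.09 SE, limma adjusted p = 1.48e-09). E2f8, an atypical E2F that represses its targets, had -1.11, or -0.56 with chromosome centring, and on its second probe set -0.59, which did not pass (adjusted p = 0.114 by limma). Rb1, the retinoblastoma gene, went from 103 and 50.7 to 182 and 204 (1.22 ± 0.24 SE, limma adjusted p = 0.00157), or 0.80 without wild-type replicate 2. E2f5, which acts mainly with RB relatives as a repressor, rose by 1.06, and by 0.36 on its second probe set. With its probe sets averaged Rb1 had 0.50.

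Of 19 other fork genes 9 fell and 3 rose, with Rnaseh2a, which removes RNA from DNA hybrids, at -0.89 and the nuclease gene Dna2 at -0.59, and with topoisomerase Top1 at 0.79 and Rnaseh2b at 0.28. Dna2 lost its call under 6 alternatives, among them its probe sets averaged (-0.30) and wild-type replicate 1 left out (-0.47), with an adjusted p of up to 0.176. Rnaseh2b lost its call under 4, among them chromosome centring (0.11) and wild-type replicate 1 left out (0.20), with an adjusted p of up to 0.309. Of 10 further nucleotide enzymes 5 fell and 3 rose. The nucleoside diphosphate kinase gene Nme1 had -1.27 and Cad, which starts pyrimidine synthesis, -1.11. Rrm2b, the alternative small subunit of ribonucleotide reductase, rose by 0.74, opposite to Rrm2, and Samhd1, which degrades deoxynucleotides, rose by 0.71. The second probe set of Nme1 gave 0.85, and with its probe sets averaged Nme1 lost its call (-0.21, adjusted p = 0.0588 by limma).

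Of 10 further chromatin genes 5 fell and 5 rose. The histone chaperone genes Nasp and Asf1b had differences of -0.81 and -0.77, though the second Nasp probe set gave -0.46 and did not pass (adjusted p = 0.142 by limma), and Atad2 and the remodelling gene Hells rose by 1.04 and 0.82. Of 14 checkpoint and repair genes 4 fell, with the ATR partner gene Atrip at -1.17 and the 9-1-1 clamp gene Rad1 at -0.75, and 6 rose, with Rad17, which loads that clamp, at 0.81 and Brca2 at 0.66. Brca2 lost its call without SMRTmRID replicate 1 (0.60, adjusted p = 0.0696 by limma). With a pseudocount of 64 the differences of Brca2 and Atrip were 0.42 and -0.72.

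**Figure D5:**
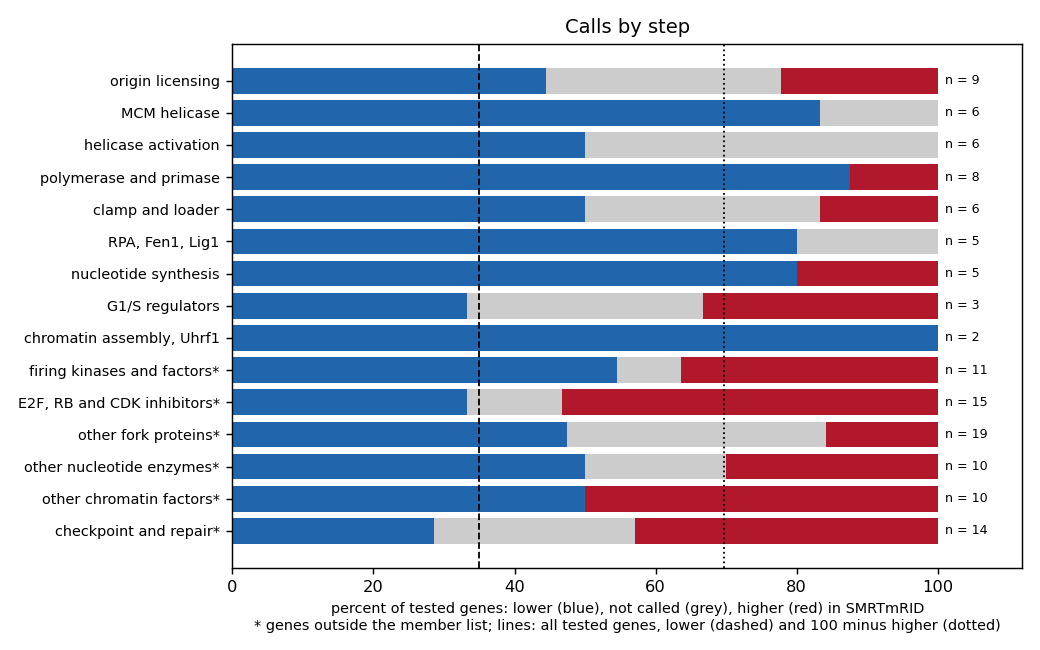
Percent of the tested genes of each step that were lower (blue), not called (grey) or higher (red) in SMRTmRID, with the number tested at the right; starred rows are the pathway lists that hold no member. The dashed line marks the 35% of all tested genes that fell, and the distance from the dotted line to 100 the 30.3% that rose.

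In the series as a whole, the arrays of a genotype correlated at 0.991 and their median absolute log2 difference was 0.0983 for wild-type and 0.0987 for SMRTmRID, and the number of arrays limits the precision. Over 11 fibroblast markers the wild-type arrays summed to 75148 and 76962 and the SMRTmRID arrays to 101182 and 96426. On the wild-type arrays the collagens, Fn1, Vim and S100a4 carried the sums. On the SMRTmRID arrays Dcn, at 8878 and 8777, exceeded S100a4, at 7652 and 7567. Pdgfrb, Pdgfra and Thy1 also added to the sums there. All 5 endothelial markers lay below the filter, as did 4 of 6 epithelial and 2 of 6 blood markers, with summed blood signals of 525 and 326 on the wild-type arrays against 549 and 528 on the SMRTmRID arrays. The blood marker Lyz2 had 27.4 and 15.6 on the wild-type arrays against 105 and 95.3 on the SMRTmRID arrays. The epithelial marker Krt19 had 6.11 and 4.98 against 53.9 and 82.8. Both were above the filter only through SMRTmRID. Of the other epithelial markers, Epcam and Cdh1 went the other way. Epcam, called lower, had 187 and 171 against 137 and 132. Cdh1, below the filter, had 55.9 and 42.3 against 2.41 and 1.61. Krt8, Krt18 and Krt14, also below the filter, had wild-type means of 18.6, 21.5 and 13.9. Their SMRTmRID means were higher, at 30.7, 24.7 and 20.4. Summed epithelial signals were 296 and 279 on the wild-type arrays against 279 and 283 on the SMRTmRID arrays. Of 14 mitosis genes 8 fell and 4 rose, or 57.1% and 28.6%, against 35% and 30.3% of all tested genes. The 4 that rose were Mki67, by 0.64, Bub1, Ttk and Nusap1, so these genes did not move together. Signals summed over the 14 were 9572 and 9717 on the wild-type arrays against 6405 and 6366 on the SMRTmRID arrays. In such bulk RNA a smaller share of cells in S phase and less transcript per cell cannot be told apart, and the part of the cell cycle state in the differences of the members was not tested.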

How the data were processed

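Each deposited value is the intensity of 1 probe set on 1 array, summarised by MAS5 per the labels. The authors' values are linear, and their mean without the lowest and highest 2% was 200.0 on each array. Platform build and detection calls are not given in the sources used here. Of 45101 probe sets 64 controls were left out; 34945 had 1 gene symbol, 932 several and 9160 none here. Genes with a mean signal above the median of all values, 35.1, were tested (11057 of 18193). Signals were taken as log2(signal + 16) and tested in limma 3.58.1 (R 4.3.3) with lmFit and eBayes with trend, two-sided and without covariates; the script was tested on simulated data.

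The members, steps and lists were chosen with earlier results of these data known. Every member is named; signals are given for up to 3 called members per step, those against it and a sole member not called, and up to 2 called genes per direction in pathway lists. Other probe sets were named after their values were seen. Replicate numbers do not pair the arrays (correlation of deviations 0.012). Alternatives were pseudocounts 1 and 64, 2 other filters, 2 scalings, no trend, 2 probe-set rules, the replicate block and each array left out; chromosome centring and leaving out chromosome 7 were added after seeing the data. Averages over the probe sets of a gene took in those below the filter. Motifs were searched in RefSeq promoters (GRCm38.p6). Chromosomes come from RefSeq's table of that assembly.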

Additional observations from a re-analysis of the deposited data

How the results depend on the processing

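The count of lower members lay between 27 and 35 over the 16 alternatives, against 33, and that of higher members between 3 and 6, against 6; the members' median lay between -0.52 and -0.40. With the filter raised to the 75th percentile, 3 members and 17 other pathway genes were higher, against 6 and 29, since fewer genes were tested. With the second probe set 18 pathway genes were higher. Leaving out each array in turn gave 30 to 32 lower and 4 to 6 higher members. The replicate number as a block, which names arrays and does not pair them, gave 33 lower and 6 higher members and 3987 lower and 3433 higher genes of all tested. Of the 39 called members 29 (26 lower, 3 higher) kept their call and direction under every alternative in which they were tested. Among values called on either side, directions turned for Fen1 with the mean of its probe sets (-0.36) and with its second probe set (-0.85), for Ccne1 with chromosome centring (0.033), and with the second probe set for Ticrr (0.077) and Nme1 (0.85); the cause was not tested. Of the 11 members not called, 8 turned direction under some alternative, Fen1 and, with no call on either side, Cdc45, E2f1, Gins4, Orc2, Orc5, Rfc2 and Rfc3. Rank in a step rests on 2 technical arrays per genotype, and signal near the filter limits Tyms, Ccne2 and Orc1.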
